A study of Mus musculus with 6 samples.

Results

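Collagen chain genes were taken as every row of the authors' deposited FPKM table whose symbol had the form Col, a type number, the letter a and a chain number. There were 44 of them among 39174 genes. By textbook class, 11 encode fibrillar chains, 6 the basement membrane chains of type IV, 9 the FACIT chains (fibril-associated collagens with interrupted triple helices) and 18 other collagens. The cells were MLO-Y4, an osteocyte-like mouse line grown from the long bone of a transgenic animal that carried large T antigen under the osteocalcin promoter. In 3 flow cultures the cells received oscillating fluid flow for 2 h, at 10 dyn/cm² of shear, and were left in new medium for another 2 h before lysis. The 3 non-flow control cultures were handled as a sham in parallel. Both groups grew on glass that carried a coat of type I collagen protein, replicates were taken on separate days, and every culture came from this 1 line.

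Collagens are trimers of α chains wound into a triple helix, for which glycine has to recur along the chain, once in each Gly-X-Y triplet. Most fibrillar chains carry an uninterrupted helix. Fibrillar chains pack into the fibres that give bone its tensile strength, with type I as the main one. Type IV chains form the sheet of basement membranes, FACIT chains decorate fibrils, and type VI chains build beaded filaments around cells. Osteocytes sense fluid moving in the canaliculi of bone, and the matrix around the cell is among the structures through which that drag is thought to reach it. The comparison asks whether the transcripts of these chains differed after flow.

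Values are FPKM, reads scaled for transcript length and library depth, so that levels of different genes can be set side by side. Depth was estimated from the spacing of low FPKM values. It was 11020000, 5750000 and 19230000 reads in flow 1, flow 2 and flow 3, and 17910000, 18080000 and 19010000 reads in non-flow controls 1, 2 and 3. Flow 1 and flow 2 were therefore the shallowest. For the collagens tested below, the smallest number of reads behind a value was estimated at 287, a counting error of 5.90%. Of the osteocyte markers 4 were tested, Gja1, Pdpn and Cd44 among them, and 0 called, while Sost, Fgf23 and Mepe, markers of mature osteocytes, were listed at 0 in all 6 libraries and Dmp1 reached 0.0354 FPKM at most. The osteoblast marker Spp1 lay between 6445 and 8360 FPKM in flow and between 6868 and 7054 FPKM in non-flow controls. Every other osteoblast marker listed stayed at or under 9.95 FPKM, the value of Bglap in non-flow control 3. Sp7, Pth1r and Ibsp were not tested and reached 0.388, 0.182 and 0.0485 FPKM at most.

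The repeat that defines the family is visible in the coding sequence. Glycine codons begin with GG, and unbroken runs of triplets opening with such a codon reached 337 to 344 triplets in the 6 expressed fibrillar genes (337 in Col5a3, 338 in Col1a1 and Col5a1, 339 in Col1a2 and Col5a2, 344 in Col3a1). They reached 66 triplets in Col4a2 and 40 in Col4a1, whose helices are interrupted, 87 in Col6a1 and in Col6a2, 61 in Col8a1, 52 in Col16a1, 45 in Col6a3 and 30 in Col18a1. The first 90 coding bases of the longest run are shown for 7 genes as examples of the repeat. They come from GENCODE M21 transcripts on GRCm38, read 5′ to 3′ on the sense strand, and capitals mark the glycine codon that opens each triplet.
Col1a1 (coding bases 502 to 591): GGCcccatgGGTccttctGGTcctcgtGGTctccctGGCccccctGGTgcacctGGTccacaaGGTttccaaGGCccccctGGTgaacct
Col1a2 (coding bases 289 to 378): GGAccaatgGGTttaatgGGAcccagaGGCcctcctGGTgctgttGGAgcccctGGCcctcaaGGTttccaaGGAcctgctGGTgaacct
Col3a1 (coding bases 490 to 579): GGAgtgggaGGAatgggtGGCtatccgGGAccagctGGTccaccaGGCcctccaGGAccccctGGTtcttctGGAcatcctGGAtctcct
Col5a2 (coding bases 631 to 720): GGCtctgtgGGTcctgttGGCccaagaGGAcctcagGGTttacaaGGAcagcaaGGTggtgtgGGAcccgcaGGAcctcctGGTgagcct
Col5a3 (coding bases 1432 to 1521): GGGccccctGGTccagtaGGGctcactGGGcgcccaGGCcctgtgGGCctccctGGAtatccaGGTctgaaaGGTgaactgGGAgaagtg
Col16a1 (coding bases 3016 to 3105): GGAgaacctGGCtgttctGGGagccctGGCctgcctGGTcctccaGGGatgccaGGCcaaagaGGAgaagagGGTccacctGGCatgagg
Col8a1 (coding bases 1054 to 1143): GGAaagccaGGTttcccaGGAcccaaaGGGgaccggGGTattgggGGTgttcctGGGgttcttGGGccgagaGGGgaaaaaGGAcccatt

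The stretches of Col1a1 and Col5a3 held 66.7% and 65.6% G or C, and those of Col1a2 and Col8a1 60.0% each. Over whole coding sequences the tested collagens held 54.6% to 63.0% GC, with a median of 60.05%, and 9.10% to 28.6% of their codons were glycine. The longest run had a higher GC content than the rest of the coding sequence in 13 of the 14 tested genes. Col4a1 was the exception, at 58.9% in the run and 60.6% outside it.

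MLO-Y4 cells expressed a limited set of collagen chains. The minimum for testing, a 6-library mean of 1 FPKM, was met by 14 of the 44 genes: 6 of 11 fibrillar, 2 of 6 type IV, 1 of 9 FACIT and 5 of 18 other genes. In order of mean they were Col3a1, Col6a3, Col1a1, Col1a2, Col5a2, Col8a1, Col6a2, Col5a3, Col4a1, Col16a1, Col6a1, Col4a2, Col5a1 and Col18a1. Col3a1 stood above 93.8% and Col18a1 above 36.8% of all genes tested. The 14 genes passed on their mean over both groups, so each could have been higher in either.

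**Figure D1:**
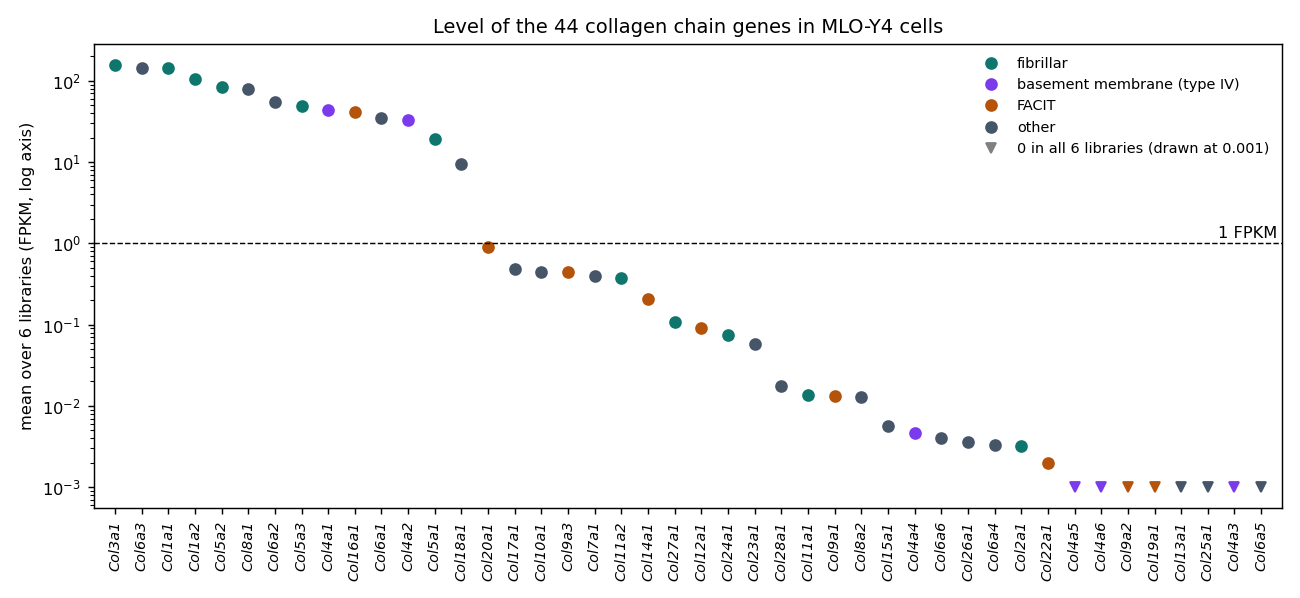
Mean FPKM over the 6 libraries (log axis) for the 44 collagen chain genes in order of level, coloured by class, with the testing minimum of 1 FPKM as a dashed line and genes listed at 0 everywhere drawn as triangles at the bottom. After the 14 genes at 9.39 to 156.5 FPKM the level drops to 0.899 FPKM for Col20a1 and on down.

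The plot of levels shows a gap rather than a slope at the minimum, with Col18a1 at a mean of 9.39 FPKM just inside it and Col20a1 at 0.899 FPKM just outside. The 8 genes at the bottom of the plot were listed at 0 in all 6 libraries. They are Col4a3, Col4a5, Col4a6, Col9a2, Col19a1, Col13a1, Col25a1 and Col6a5.

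No collagen gene was called after flow. In limma's test on log2(FPKM + 1), with Benjamini-Hochberg adjustment over all 11957 genes tested and a threshold of 0.05, 0 of 14 collagens passed, beside 2 of all genes tested (0.0167%). At an unadjusted p under 0.05 there was 1 collagen, Col1a2, beside 1019 of all genes tested (8.52%). Col1a2 was also the 1 gene of the 14 whose groups did not overlap, all flow values lying below every non-flow value. Groups did not overlap in 1808 of all genes tested (15.1%), lower in flow in 957 and higher in 851. The log2 fold change, flow minus non-flow control, was below 0 in 11 of 14 collagens, beside 6185 of 11957 genes (51.7%). Its median was -0.23 over the 14 collagens and -0.01 over all genes tested. In bulk RNA, fewer cells expressing a gene and less RNA per cell cannot be told apart.

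Summed over all 44 genes, collagen transcripts came to 951.0, 900.2 and 1000.02 FPKM in flow 1 to 3, against 1180.3, 940.5 and 1030.7 FPKM in non-flow controls 1 to 3. The means were 950.4 ± 49.9 FPKM in flow and 1050.5 ± 121.2 FPKM in non-flow controls (SD, n = 3 each). The groups overlapped, since flow 3 exceeded non-flow control 2. The 11 fibrillar genes summed to 517.3 ± 37.2 FPKM in flow and 595.1 ± 74.8 FPKM in non-flow controls, and the 18 other collagens to 325.3 ± 13.1 FPKM in flow and 325.8 ± 26.9 FPKM in non-flow controls.

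Type I collagen, the main fibril of bone, was represented by both of its chains. Col1a2 (chromosome 6, 4504814 to 4541544, plus strand, mm10), which encodes the α2 chain, had 96.2, 92.0 and 97.4 FPKM in flow 1 to 3, against 123.1, 111.1 and 108.9 FPKM in non-flow controls 1 to 3. The 3 flow values were close together and all under the lowest control. Its log2 fold change was -0.26 ± 0.09 (SE; 95% interval -0.47 to -0.05), with an adjusted p of 0.559 in limma, so it was not called. Col1a1 (chromosome 11, 94936224 to 94953042, plus strand), which encodes the α1 chain, had 131.9, 105.3 and 159.3 FPKM in flow and 169.2, 140.2 and 151.4 FPKM in non-flow controls. Flow 2 was the lowest and non-flow control 1 the highest, while flow 3 lay among the controls. The log2 fold change was -0.23 ± 0.17 (adjusted p = 0.620, limma).

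Col3a1 (chromosome 1, 45311538 to 45349706, plus strand), whose homotrimer forms thin fibrils that mix with type I in many soft tissues, was the most abundant of the family. It had 160.0, 140.1 and 127.5 FPKM in flow and 205.9, 148.7 and 156.5 FPKM in non-flow controls. Non-flow control 1 stood highest and the others overlapped. The log2 fold change was -0.25 ± 0.16 (adjusted p = 0.590, limma). In the annotation 1.40% of its exon bases are shared with a gene on the same strand.

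Type V chains, which start type I fibrils and limit their diameter, were present from all 3 genes. Col5a2 (chromosome 1, 45374321 to 45503282, minus strand) was the steadiest collagen, at 85.5, 85.7 and 82.1 FPKM in flow and 88.1, 85.0 and 76.1 FPKM in non-flow controls. Its log2 fold change of 0.03 had a 95% interval of -0.19 to 0.24. Col5a3 (chromosome 9, 20770050 to 20815067, minus strand) had 41.7, 39.6 and 51.2 FPKM in flow and 70.1, 40.4 and 49.1 FPKM in non-flow controls, with 1 high control and the rest intermingled (log2 fold change -0.23 ± 0.22). Col5a1 (chromosome 2, 27886425 to 28039514, plus strand) had 21.9, 11.3 and 21.4 FPKM in flow and 23.6, 13.9 and 22.1 FPKM in non-flow controls, with flow 2 and non-flow control 2 low in their groups (log2 fold change -0.14 ± 0.31). Antisense or opposite-strand genes share 2.50% of the exon bases of Col5a1, and whether counting used the strand is not given in the sources used here.

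The type IV pair Col4a1 and Col4a2, which encode the chains of the widespread basement membrane trimer, varied together from library to library. Col4a1 (chromosome 8, 11198423 to 11312826, minus strand) had 37.5, 31.9 and 51.7 FPKM in flow and 50.9, 37.6 and 51.6 FPKM in non-flow controls. Col4a2 (chromosome 8, 11312805 to 11449287, plus strand) had 27.9, 24.5 and 38.3 FPKM in flow and 37.7, 30.3 and 37.5 FPKM in non-flow controls. In both genes flow 1, flow 2 and non-flow control 2 were low and flow 3 was as high as the other controls. The log2 fold changes were -0.22 ± 0.21 for Col4a1 and -0.23 ± 0.19 for Col4a2. The 4 remaining type IV genes, Col4a3 to Col4a6, whose products replace this trimer in kidney and other specialised membranes, reached about 3 reads in a library at most.

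Among FACIT genes only Col16a1 (chromosome 4, 130047840 to 130099283, plus strand) was tested. It had 24.9, 28.4 and 53.5 FPKM in flow and 57.2, 32.4 and 48.7 FPKM in non-flow controls. Flow 1 and flow 2 lay below every control, and flow 3 above 2 of the 3. This gave the lowest log2 fold change among the 14, -0.41 ± 0.34, with the widest 95% interval, -1.22 to 0.41 (adjusted p = 0.634, limma).

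Type VI collagen, the filament of the pericellular matrix, had its 3 classical chains expressed. Col6a3 (chromosome 1, 90765923 to 90843971, minus strand), the longest chain, had 152.0, 149.5 and 141.5 FPKM in flow and 167.8, 118.4 and 140.5 FPKM in non-flow controls, with the flow values inside the range of the controls (log2 fold change 0.07 ± 0.14). Col6a2 (chromosome 10, 76595762 to 76623630, minus strand) had 44.0, 41.7 and 61.5 FPKM in flow and 55.7, 52.9 and 71.8 FPKM in non-flow controls (log2 fold change -0.30 ± 0.19). Col6a1 (chromosome 10, 76708792 to 76726168, minus strand) had 30.7, 27.2 and 39.3 FPKM in flow and 36.0, 31.5 and 45.5 FPKM in non-flow controls (log2 fold change -0.21 ± 0.19). In Col6a1 and Col6a2 the third library was the highest of its group in both flow and non-flow controls. The other 3 chains of the type, Col6a4, Col6a5 and Col6a6, stayed under the level of 3 reads.

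Col8a1 (chromosome 16, 57624258 to 57754737, minus strand), a short network-forming chain best known from vessel wall and cornea, had 84.4, 111.4 and 63.6 FPKM in flow and 82.6, 82.4 and 56.7 FPKM in non-flow controls. Flow 2 was highest here, although it was the lowest flow library for most fibrillar chains. The log2 fold change was 0.21 ± 0.24, the highest of the 14. Col18a1 (chromosome 10, 77052178 to 77166548, minus strand), a basement membrane proteoglycan whose cleaved end is endostatin, had 8.82, 9.26 and 7.21 FPKM in flow and 8.22, 11.8 and 11.1 FPKM in non-flow controls (log2 fold change -0.26 ± 0.17). Flow 3 was the lowest and non-flow control 1 lay among the flow libraries.

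**Figure D2:**
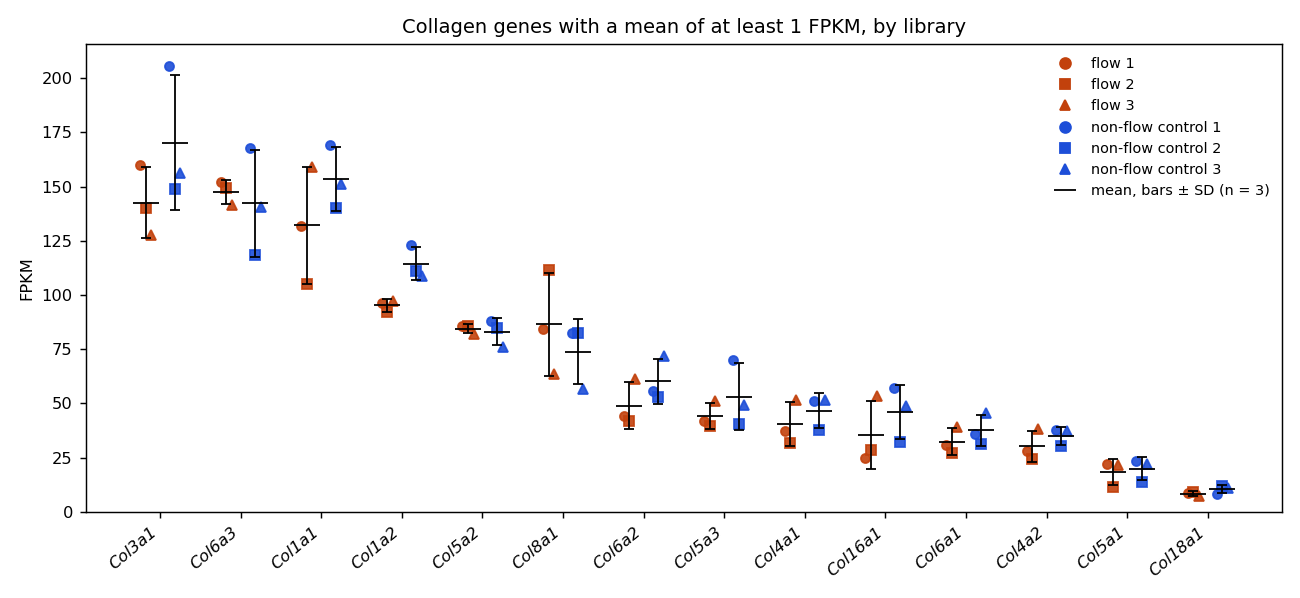
FPKM of the 14 tested collagen genes, with the 3 flow libraries (left, red) and the 3 non-flow control libraries (right, blue) of each gene as points and the mean ± SD as black bars. The 2 groups separate only for Col1a2, at 92.0 to 97.4 FPKM in flow and 108.9 to 123.1 FPKM in non-flow controls.

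In the plot of values by library flow 1 (circle) and flow 2 (square) both lay below flow 3 (triangle) in 8 of 14 genes. Against each gene's own mean over the 6 libraries, the median log2 deviation of the 14 collagens was -0.11 in flow 1, -0.30 in flow 2 and 0.14 in flow 3. It was 0.23 in non-flow control 1, -0.07 in non-flow control 2 and 0.15 in non-flow control 3. Of the 14 collagens 9, 11 and 6 were below their mean in flow 1, flow 2 and flow 3, and 1, 10 and 3 in non-flow controls 1, 2 and 3, so both groups were mixed. Without flow 1 and flow 2 together, the median log2 fold change was 0.03, and 6 of 14 were below 0. It was -0.10 without flow 2 alone.

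Base composition moved with part of this variation. The median GC content of the longest annotated transcript was 57.2% for the 14 tested collagens, against 49.6% for all 10460 tested protein-coding genes. Of the 14 collagens 13 lay above that median, Col8a1 at 46.8% being the exception, and 9 lay in the highest quintile. In that quintile of all tested protein-coding genes, the median log2 deviation was -0.18 in flow 1, -0.22 in flow 2 and 0.10 in flow 3. In non-flow controls 1 to 3 that median was 0.11, 0.10 and 0.09. In the lowest GC quintile the values were 0.18, 0.22 and -0.11 in flow 1 to 3, and -0.08, -0.10 and -0.11 in non-flow controls 1 to 3. The same 2 libraries, flow 1 and flow 2, were thus low for GC-rich genes and high for AT-rich genes at large, and they were also the 2 shallowest.

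**Figure D3:**
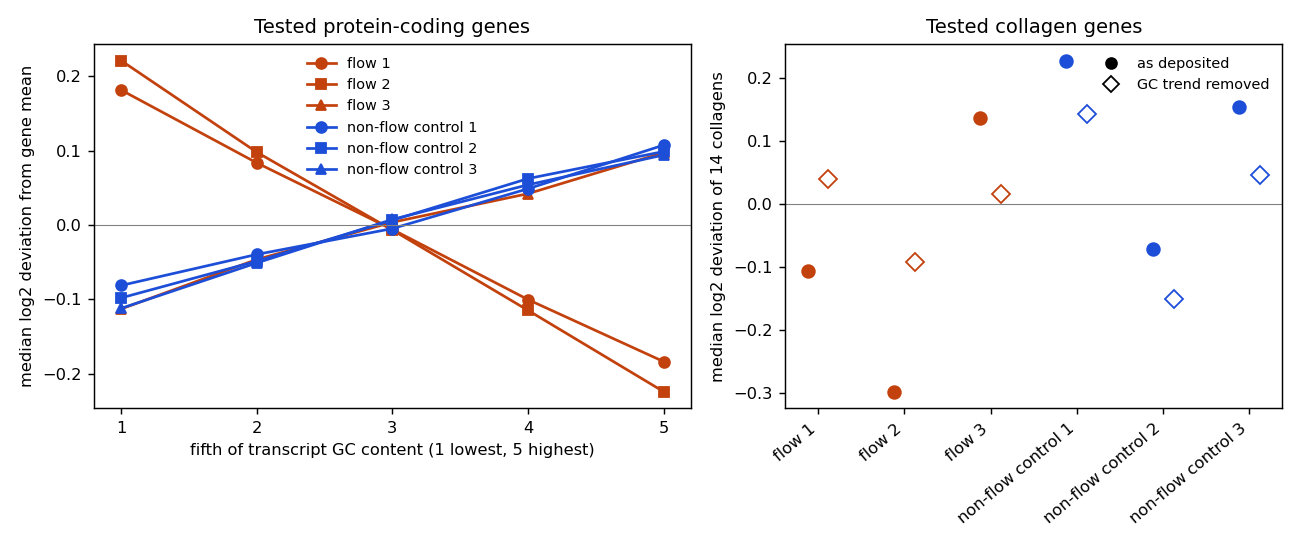
Left, median log2 deviation from each gene's mean over the 6 libraries, by transcript GC content cut into quintiles (1 lowest, 5 highest), for tested protein-coding genes in the 3 flow (red) and 3 non-flow control (blue) libraries. Right, median log2 deviation of the 14 tested collagens in each library as deposited (filled circles) and with the GC trend removed (open diamonds); flow 2 sits at -0.30 as deposited and at -0.09 with the trend removed.

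The left panel of the plot by GC content shows flow 1 and flow 2 sloping down and the other 4 libraries sloping up on nearly the same line. When each library's trend of log2(FPKM + 1) on GC was removed, the collagen medians became 0.04, -0.09 and 0.02 in flow 1 to 3, and 0.14, -0.15 and 0.05 in non-flow controls 1 to 3. The median log2 fold change of the 14 collagens was then -0.02, the single genes ranged from -0.17 for Col16a1 to 0.20 for Col6a3, and 9 of 14 were below 0 (background 5289 of 10460 genes, 50.6%). Col1a2 came to -0.10 ± 0.09, and groups did not overlap in 0 of 14 collagens, beside 1286 of 10460 genes (12.3%). With limma 0 of 14 were called, beside 0 of 10460 genes (0.00%), and 0 of 14 had an unadjusted p under 0.05, beside 701 of 10460 genes (6.70%). Whether removing the trend also takes away a response of GC-rich genes to flow was not tested.

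**Figure D4:**
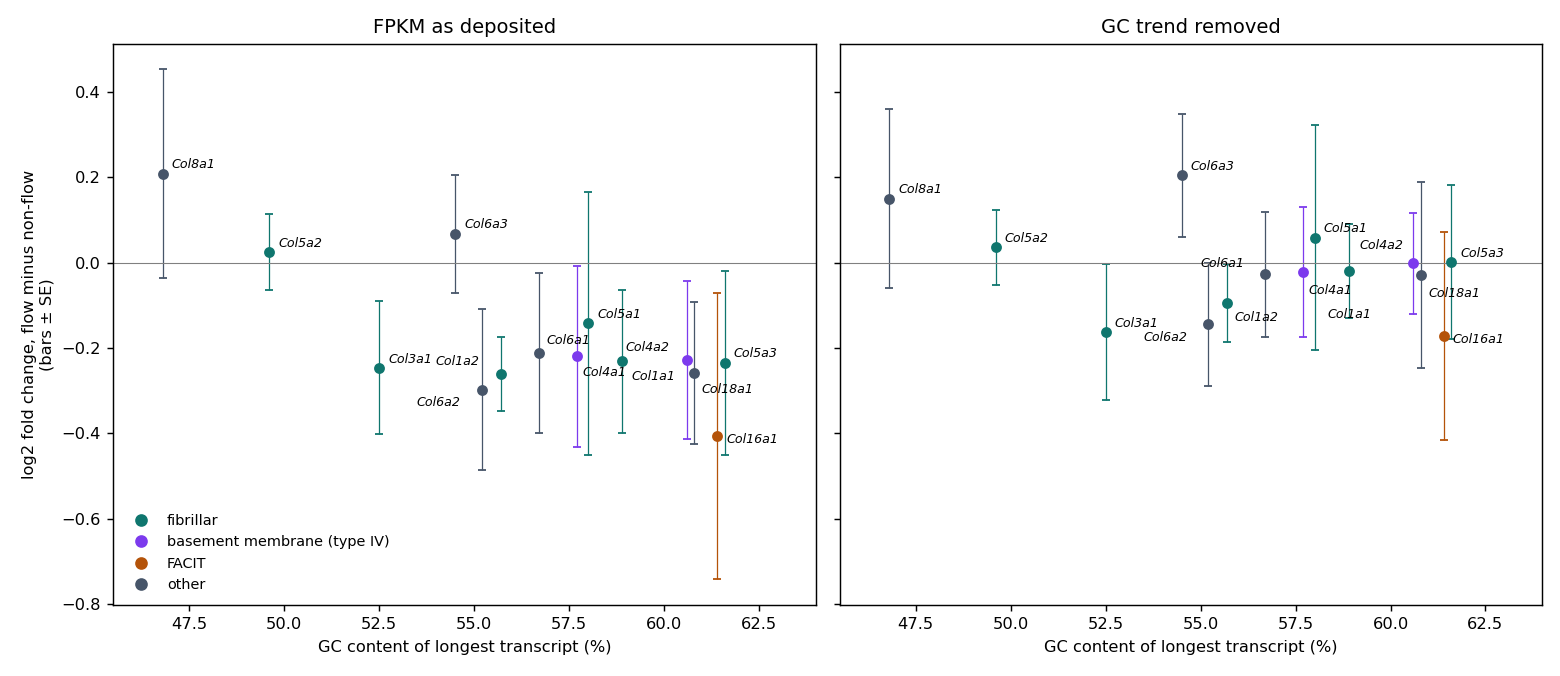
log2 fold change, flow minus non-flow control, of the 14 tested collagens against transcript GC content (%), as deposited (left) and with the GC trend removed (right), coloured by class with bars of ± SE. As deposited, Col8a1 at 46.8% GC stands highest at 0.21 and Col16a1 at 61.4% GC lowest at -0.41, while with the trend removed all 14 lie between -0.17 and 0.20.

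Across the 14 genes in the plot of fold change against GC, Pearson's r was -0.762 and Spearman's rho -0.486 as deposited, and -0.344 and -0.235 with the trend removed. These describe genes measured in the same 6 libraries, which are not independent of each other. The trend was removed on the same GC values, so a weaker correlation afterwards is partly built in by that step. The genes least rich in GC, Col8a1 and Col5a2, were 2 of the 3 with a log2 fold change above 0, the third being Col6a3 at 54.5% GC.

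Chains that assemble into 1 trimer can be compared within a library, where depth cancels. A GC trend does not cancel in full between genes of unlike GC content. Transcript GC was 57.7% for Col4a1 and 60.6% for Col4a2, and 56.7% for Col6a1 and 55.2% for Col6a2. It was 58.0% for Col5a1 and 49.6% for Col5a2. The part of GC content in the ratios was not tested. The ratio of Col4a1 to Col4a2 was 1.34, 1.30 and 1.35 in flow 1 to 3 and 1.35, 1.24 and 1.38 in non-flow controls 1 to 3. Its highest and lowest values differed by a factor of 1.11, while those of the genes themselves differed by factors of 1.62 and 1.57. The 2 genes lie head to head on chromosome 8, with starts that overlap by 22 bases in the annotation, and share a promoter region in mammals. The overlapping bases are shown because both first exons contain them, read on the plus strand of GRCm38.p6 at chr8:11312805-11312826.
Col4a1 and Col4a2, shared start: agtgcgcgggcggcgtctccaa

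The ratio of Col6a1 to Col6a2, neighbours on the minus strand of chromosome 10 with 85161 bases between them, was also steady. It was 0.697, 0.652 and 0.640 in flow and 0.646, 0.595 and 0.633 in non-flow controls, a factor of 1.17 between highest and lowest, against 1.67 and 1.72 for the genes. Col6a3, on chromosome 1, did not keep step with them. Its ratio to Col6a1 ran from 3.60 to 5.50 in flow and from 3.09 to 4.67 in non-flow controls, a factor of 1.78.

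For type I collagen the ratio of Col1a1 to Col1a2 was 1.37, 1.14 and 1.64 in flow and 1.37, 1.26 and 1.39 in non-flow controls. The protein trimer holds more α1 than α2 chains. Flow libraries held both the lowest and the highest ratio, and their mean of 1.38 ± 0.245 lay close to 1.34 in non-flow controls. Col3a1 and Col5a2 lie tail to tail on chromosome 1 with 24614 bases between them. Their ratio ran from 1.55 to 1.87 in flow and from 1.75 to 2.34 in non-flow controls. Within type V the ratio of Col5a1 to Col5a2 varied by a factor of 2.21 over the 6 libraries, from 0.132 to 0.261 in flow and from 0.163 to 0.291 in non-flow controls.

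**Figure D5:**
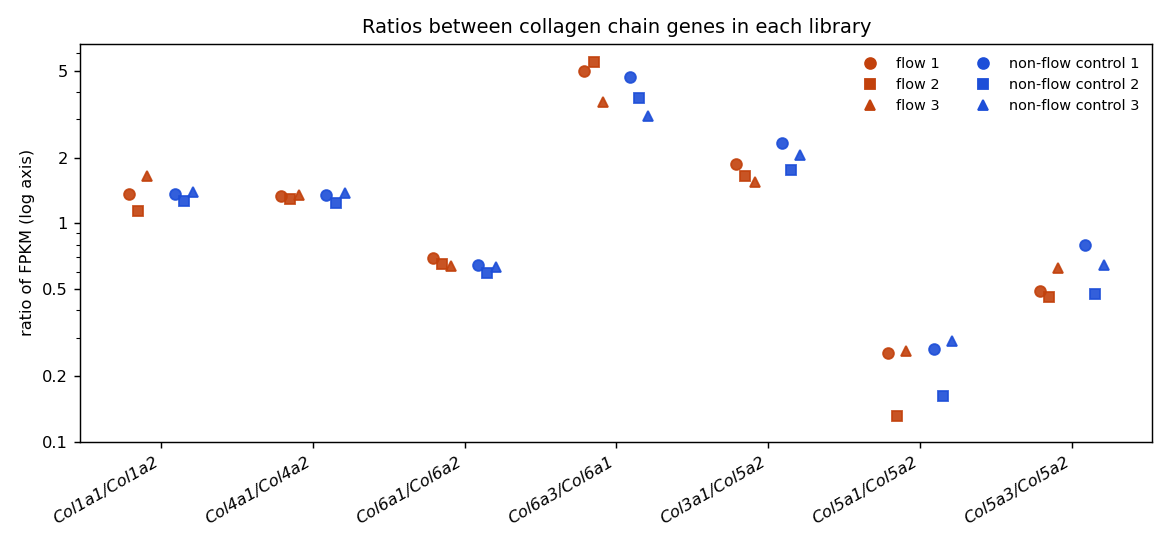
Ratio of FPKM between pairs of collagen genes in each library (log axis), for the 3 flow libraries (left, red) and the 3 non-flow control libraries (right, blue) of each pair. The ratio of Col4a1 to Col4a2 stays between 1.24 and 1.38, whereas that of Col5a1 to Col5a2 runs from 0.132 to 0.291.

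The plot of ratios places the 2 groups over each other for every pair drawn. Among the pairs drawn, Col4a1 with Col4a2 and Col6a1 with Col6a2 had the tightest points. Col3a1 and Col5a2, which are also neighbours, had a ratio that varied by a factor of 1.50. Whether the position of 2 genes bears on the steadiness of their ratio was not tested.

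Fluid shear on endothelial cells is known to act on some promoters through the 6-base shear stress response element GAGACC. RefSeq promoter windows on GRCm38.p6, the 250 bases before each annotated start, were matched for 35 of the 44 collagen genes, 12 of the 14 tested, some with several starts. The element, on either strand and written GGTCTC on the other, stood in 5 of the 14 windows of tested collagens and in 8 of 38 windows of all collagens, beside 13.7% of all 32851 windows of the same length. The tested genes with it were Col16a1, Col4a2, Col6a2, Col6a1 and Col8a1. Their log2 fold changes, -0.41, -0.23, -0.30, -0.21 and 0.21, covered the range of the 14 from end to end. Annotated exons covered 250 bases of the Col4a2 window, 124 of the Col6a1 window and 113 of the Col16a1 window, so these are not purely upstream sequence. The windows of the gene with the highest fold change and of the type VI gene with the lowest are shown, 5′ to 3′ on the gene's own strand, with the element in capitals.
Col8a1 (chr16:57754738-57754987, minus strand): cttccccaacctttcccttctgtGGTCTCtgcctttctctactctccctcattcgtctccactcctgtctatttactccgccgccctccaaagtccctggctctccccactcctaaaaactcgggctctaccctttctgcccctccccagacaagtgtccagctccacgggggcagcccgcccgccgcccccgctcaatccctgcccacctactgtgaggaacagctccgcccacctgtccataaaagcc
Col6a2 (chr10:76623631-76623880, minus strand): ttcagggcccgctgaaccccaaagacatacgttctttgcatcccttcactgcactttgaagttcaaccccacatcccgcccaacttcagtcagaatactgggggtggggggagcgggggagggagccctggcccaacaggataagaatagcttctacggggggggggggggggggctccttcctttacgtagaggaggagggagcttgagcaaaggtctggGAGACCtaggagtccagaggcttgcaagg
These matches describe the letters of the windows and not binding. The windows of tested collagens had a median GC content of 62.0%, against 52.4% for all windows.

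The 30 collagens below the minimum contributed 3.64, 2.44 and 4.54 FPKM in all to flow 1 to 3, against 4.25, 3.73 and 3.39 FPKM in non-flow controls 1 to 3. Of them 14 exceeded the level of 3 reads in some library, 8 were listed at 0 throughout and 22 were above 0 in at least 1 library. The levels of 3 reads per gene and library cover counting error only. Col20a1, a FACIT chain, came nearest to the minimum at 0.838, 0.805 and 1.48 FPKM in flow and 1.11, 0.796 and 0.369 FPKM in non-flow controls. The next were Col17a1, the transmembrane collagen of hemidesmosomes, at a mean of 0.482 FPKM, Col10a1 of hypertrophic cartilage at 0.441 FPKM and Col9a3 of cartilage fibrils at 0.439 FPKM. Col7a1, the anchoring fibril of skin, averaged 0.398 FPKM, and Col11a2 0.377 FPKM.

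Col14a1, a FACIT chain of tendon and other dense tissues, had 0.167, 0.175 and 0.165 FPKM in flow and 0.274, 0.251 and 0.225 FPKM in non-flow controls. The groups did not overlap, but these values rest on about 6 to 31 reads a library and the gene was not tested. The cartilage chain Col2a1 was listed at 0 in 5 libraries and at 0.0194 FPKM in flow 1, about 1 read. Col24a1, a minor fibrillar chain of developing bone, reached 0.407 FPKM in non-flow control 3 and stayed at or under 0.0354 FPKM in the other 5 libraries.

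The enzymes and chaperones that modify collagen chains in the endoplasmic reticulum were not called either. Of 17 tested, 0 passed limma's threshold, 12 had a log2 fold change below 0 and the median was -0.14. Groups did not overlap in 7 of 17 genes, all lower in flow, beside 15.1% of all genes tested in either direction. With the GC trend removed this was 6 of 17, again all lower in flow, beside 12.3% of 10460 genes, and the median was -0.02. P4hb, the β subunit of prolyl 4-hydroxylase and a general disulfide isomerase, had 1029, 1132 and 1137 FPKM in flow and 1141, 1221 and 1277 FPKM in non-flow controls, a log2 fold change of -0.14 ± 0.09. Serpinh1, the collagen chaperone HSP47, had 531.4, 498.3 and 540.1 FPKM in flow and 503.8, 588.6 and 526.8 FPKM in non-flow controls, without separation. Fkbp10, a prolyl isomerase for collagen, had 121.1, 125.7 and 172.3 FPKM in flow and 176.3, 180.5 and 182.9 FPKM in non-flow controls (log2 fold change -0.38 ± 0.15, adjusted p = 0.559, limma). With the trend removed, P4hb overlapped and Fkbp10 stood at -0.19.

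P4ha2, a catalytic subunit of prolyl 4-hydroxylase, is added here after its values were seen. It had the lowest log2 fold change of the 17 tested genes of this list. Its flow values lay between 14.2 and 25.7 FPKM and its non-flow values between 33.7 and 45.0 FPKM. All 3 flow values were below all 3 controls. The log2 fold change was -0.92 ± 0.23 as deposited (adjusted p = 0.559, limma) and -0.84 with the GC trend removed.

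Outside the cell, 9 genes of propeptide cleavage and crosslinking were tested and 0 called, with 7 below 0 and a median of -0.21 (-0.03 with the GC trend removed). Pcolce, which speeds cleavage of the C-propeptide, had 272.8, 202.8 and 343.0 FPKM in flow and 376.2, 316.8 and 378.1 FPKM in non-flow controls (log2 fold change -0.41 ± 0.20). The crosslinking oxidases Lox and Loxl3 had log2 fold changes of 0.04 ± 0.25 and -0.07 ± 0.21. Of the 4 tested collagen receptors 0 were called. Itgb1, the β1 integrin, had 272.1, 262.2 and 200.2 FPKM in flow and 218.0, 211.0 and 204.4 FPKM in non-flow controls (log2 fold change 0.20 ± 0.13). The α integrin chains listed as its collagen-binding partners fell below the minimum for testing. Itga1, Itga10, Itga2 and Itga11 reached 0.845, 0.397, 0.0864 and 0.0303 FPKM at most. Ddr2, a collagen-binding kinase, had a log2 fold change of -0.03 ± 0.08, and Mrc2, an endocytic receptor, -0.44 ± 0.22. With the GC trend removed, log2 fold changes were -0.27 for Pcolce, -0.09 for Lox and 0.04 for Loxl3. For Itgb1, Ddr2 and Mrc2 they were 0.09, -0.13 and -0.23.

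Of the 3 tested small proteoglycans of fibrils, Bgn, Ogn and Dcn, 0 were called, with log2 fold changes of 0.01 ± 0.14, 0.33 ± 0.32 and -0.05 ± 0.34. With the GC trend removed these were 0.06, 0.04 and -0.31. Of the 10 tested partners of type IV in basement membranes 0 were called and 7 were below 0, with a median of -0.07, or 0.05 with the GC trend removed. Groups did not overlap in 2 of the 10, both lower in flow, beside 15.1% of all genes tested in either direction. With the GC trend removed this was 0 of the 10, beside 12.3% of 10460 genes. Sparc, a collagen-binding protein abundant in bone, had 490.0, 465.4 and 491.8 FPKM in flow and 501.3, 556.8 and 506.7 FPKM in non-flow controls (log2 fold change -0.11 ± 0.08). The laminin chains Lamc1 and Lamb1 had log2 fold changes of 0.03 ± 0.16 and 0.16 ± 0.21.

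Markers of other cell types that make collagens were at or near 0 for endothelial and epithelial cells. Endothelial markers summed to between 0.172 and 0.204 FPKM in flow and between 0.102 and 0.630 FPKM in non-flow controls over 7 genes, with Kdr, Tie1 and Emcn listed at 0 in all 6 libraries. Epithelial markers were listed at 0 in all flow libraries and reached 0.0941 FPKM at most in non-flow controls over 6 genes. Of the chondrocyte markers only Sox9, which osteoprogenitors also express, was tested, at 12.8, 8.91 and 12.7 FPKM in flow and 14.9, 11.5 and 18.2 FPKM in non-flow controls, and Matn1 was listed at 0 throughout. Of the macrophage markers Cd14 and Cd68 were tested and not called, and Itgam was listed at 0 throughout. Osteoblasts make most of the type I collagen of bone, and of 5 tested osteoblast markers 0 were called, with 4 below 0 and a median of -0.29, or -0.26 with the GC trend removed. Among them Bglap, osteocalcin, had 8.20, 6.43 and 7.50 FPKM in flow and 7.88, 9.26 and 9.95 FPKM in non-flow controls. Groups did not overlap in 1 of the 5 osteoblast markers, lower in flow, beside 15.1% of all genes tested. With the GC trend removed it was again 1 of 5, beside 12.3% of 10460 genes. The part of these marker levels in the collagen values was not tested.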

How the data were processed

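RNA sequencing of MLO-Y4 cells gave 6 libraries, 3 flow and 3 non-flow control, grouped by the labels. The deposited values are FPKM in 2 tables. The submitters' processing notes list Cufflinks 2.2.1, TopHat2 2.0.9, CASAVA 1.8.2 and the mm10 build; annotation, settings and strand use are not stated in the sources used here. The table whose columns all carry library titles was tested, and the other, shallower one was an alternative.

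Genes whose 6-library mean reached 1 FPKM were tested with limma 3.58.1 in R 4.3.3 on log2(FPKM + 1), two-sided, with a variance trend and no covariate, Benjamini-Hochberg adjusted over all genes tested. Fold changes are on that scale and are too small for low genes. The p-values reflect only how far the 3 cultures of a group spread, in the gene and, through the variance trend, in all genes tested. The script was tested on simulated data. Depth was estimated from steps of FPKM multiplied by transcript length minus 200 nt, with 74.7% to 80.8% of low values within 0.02 of a whole number of reads; it assumes no rescaling by the authors. A fit on recovered reads was not made, since that share is too low. An exact 0 can be a failed estimate.

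The GC trend was removed per library by lowess among protein-coding genes. Coordinates, 1-based on GRCm38 (mm10), transcripts and overlaps came from GENCODE M21, and promoters from RefSeq (GRCm38.p6). All collagen genes matched by identifier. Members and lists were chosen with earlier results of these data known. All collagens are accounted for, those tested by library, and of each further list at most the 3 tested genes with the highest mean are named, except where stated. Alternatives covered the pseudocount, filters, quantile normalization, GC, the other table, a replicate block and libraries left out.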

Additional observations from a re-analysis of the deposited data

How the results depend on the processing

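The count of collagen genes called was 0 under every alternative run, and the lowest adjusted p of any of the 14 in limma was 0.124, without flow 3. At an unadjusted p under 0.05 there was 1 collagen as reported. There were 5 without flow 3, 2 with no filter and 2 with adjacent title numbers as a replicate block. There were 0 without flow 2, without non-flow control 1, without flow 1 and flow 2 together, with the GC trend removed, and in the other table with or without its shallowest library. Under the remaining alternatives there was 1. The share of all genes tested at this threshold was 8.52% as reported and 6.70% with the GC trend removed. For the other alternatives it is not given, so their collagen counts have no background beside them. Without flow 3, 14 of all genes tested were called at an adjusted p under 0.05 in limma, against 2 as reported. The block left the median log2 fold change at -0.23 and its lowest adjusted p was 0.423; the labels do not say which cultures share a day, and adjacent titles deviated together with correlations of 0.023 to 0.064, so pairing was not established. The median of -0.23 moved to -0.013 with no filter (36 genes), -0.021 with the GC trend removed and 0.025 without flow 1 and flow 2 together. Leaving out 1 library at a time gave -0.33 (without non-flow control 2) to -0.10 (without flow 2). It was -0.23 with a pseudocount of 0.1 and with quantile normalization, -0.20 with a minimum of 0.1 FPKM (22 genes) and -0.22 in the other table (15 genes). An alternative chosen after seeing the data, the other table without its shallowest library, non-flow control 1, gave -0.17.

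Single log2 fold changes, none called, turned sign as follows. With the GC trend removed, Col5a3 was 0.0008 and Col5a1 0.059. Col16a1 was 0.046 in the other table, and Col5a3 0.0076 there without non-flow control 1. Leaving out 1 library at a time gave Col5a1 values of -0.37 (without non-flow control 2) to 0.15 (without flow 2), Col6a3 of -0.057 (without non-flow control 2) to 0.19 (without non-flow control 1) and Col5a2 of -0.036 (without non-flow control 3) to 0.069 (without non-flow control 1). Without flow 1 and flow 2, when the lone flow library is assumed to vary like the controls, Col6a1 was 0.078, Col1a1 0.056, Col6a2 0.043, Col5a2 -0.015, Col5a1 0.14, Col4a1 0.16, Col4a2 0.13, Col16a1 0.25 and Col8a1 -0.19. The cause was not tested. Depth limits the 30 untested collagens, and 3 cultures a group leave intervals such as that of Col16a1 open to changes of over 1 on the log2 scale.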
